A study of Ovis aries with 18 samples.

Results

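ENSOARG00020004162 and ENSOARG00020004175 are 2 sheep genes of 20477 in the deposited expression table. They were picked by identifier because earlier results of the same data had placed them near or at 0 in one of 3 skeletal muscles, longissimus lumborum (LL), with reads in psoas major (PM) and soleus (SOL). The low LL level is therefore what chose them, and it is given here as values with no test. The libraries came from muscles on the left side of lamb carcasses, 6 per muscle and 18 in all, with no treatment, genotype, breed or age stated. Total RNA depleted of ribosomal RNA was sequenced from whole muscle, so a lower level could stand for fewer cells of a type or for less RNA per cell, and these cannot be told apart.

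LL is an extensor of the back and arises from the dorsal, or epaxial, part of the embryonic muscle plate. PM is the deep flexor of the hip in the loin and belongs to the ventral, or hypaxial, muscles. SOL is a postural calf muscle, built in the embryo by precursor cells that migrate from the ventral somite into the limb bud, and in many mammals it is rich in slow, oxidative fibres. Adult muscles are known to differ in fibre type and in patterning genes that mark where in the body they formed.

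What the 2 genes encode could not be said. The table gives Ensembl identifiers alone, and the RefSeq gene table at hand held 0 of these, so names, positions and sequences are not given and the muscle labels were not checked against marker genes. The file is titled for lncRNA, but nothing in it states whether these 2 rows are non-coding. Levels are in FPKM, reads scaled to the length of the gene and to the counted reads of the library, which allows the 2 genes to be compared per length. Whole reads were recovered from the values, with lengths of 1080 bp for ENSOARG00020004162 and 1062 bp for ENSOARG00020004175. Library totals were 10216739 to 14747118 reads. LL 3 and SOL 5 stood apart by having the fewest genes with a read in their muscle, 12704 and 14181, against 13369 or more and 14959 or more in the others. Both members lay within the range of the other libraries in LL 3, and in SOL 5 only the level of ENSOARG00020004175 was the lowest of its muscle.

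ENSOARG00020004162 was lowest in LL, higher in PM and highest in SOL, and no library of one muscle overlapped with another muscle. In SOL the 6 libraries, in order of their number, held 40.4, 49.7, 49.3, 67.6, 58.5 and 45.5 FPKM. In PM they held 21.3, 7.48, 27.2, 2.23, 10.6 and 4.16 FPKM. In LL, libraries 1, 2 and 5 had no read, libraries 3 and 6 had 1 read each (0.0906 and 0.0829 FPKM), and library 4 had 10 reads, or 0.732 FPKM. The lowest PM library thus lay above the highest LL library, and the lowest SOL library above the highest PM library.

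The means were 51.8 ± 9.75 FPKM for SOL, 12.2 ± 9.98 for PM and 0.151 ± 0.288 for LL (± SD over 6 libraries). Among genes with a read in the muscle, this mean exceeded that of 91.4% of 16822 genes in SOL, 67.0% of 16549 in PM and 8.06% of 15852 in LL. The ratio of means to LL was 343 for SOL and 80.6 for PM, but LL 4 alone held 10 of the 12 LL reads. Without LL 4, left out after its value was seen, only 2 LL reads remained. The reads per library total were then 1629 times as high in SOL as in LL and 376 times as high in PM. The exact 95% counting intervals were 451 to 13456 for SOL and 104 to 3107 for PM. They are given as a description and are no test of the low LL level, which chose the gene. These intervals pool the reads of each muscle, so they cover counting error only and leave out the spread between libraries. Reads copied in amplification are not independent molecules, so the counting error itself may be larger.

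ENSOARG00020004175 had the order LL, SOL, PM, again with no overlap between muscles. In PM its 6 libraries held 22.8, 7.67, 7.03, 3.78, 18.6 and 5.29 FPKM. The SOL libraries held 2.55, 1.19, 1.24, 1.50, 0.702 and 0.727 FPKM, from 34, 16, 18, 19, 11 and 10 reads. No LL library had a read, which allows up to 3 reads per library, or 0.241 FPKM on average. All SOL libraries were above all LL libraries in spite of the low counts, and every PM library was above every SOL library.

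Its means were 10.9 ± 7.85 FPKM for PM and 1.32 ± 0.678 for SOL (± SD over 6 libraries). Taking 3 reads in each LL library as the floor, PM was 45.1-fold higher than LL and SOL 5.47-fold higher. These ratios follow another rule than the pooled reads of ENSOARG00020004162 and are not to be set beside them. The level in PM exceeded that of 64.1% of the genes with reads there, and the level in SOL that of 27.1%. So the gene was of middling level in PM and among the lower ones in SOL.

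**Figure D1:**
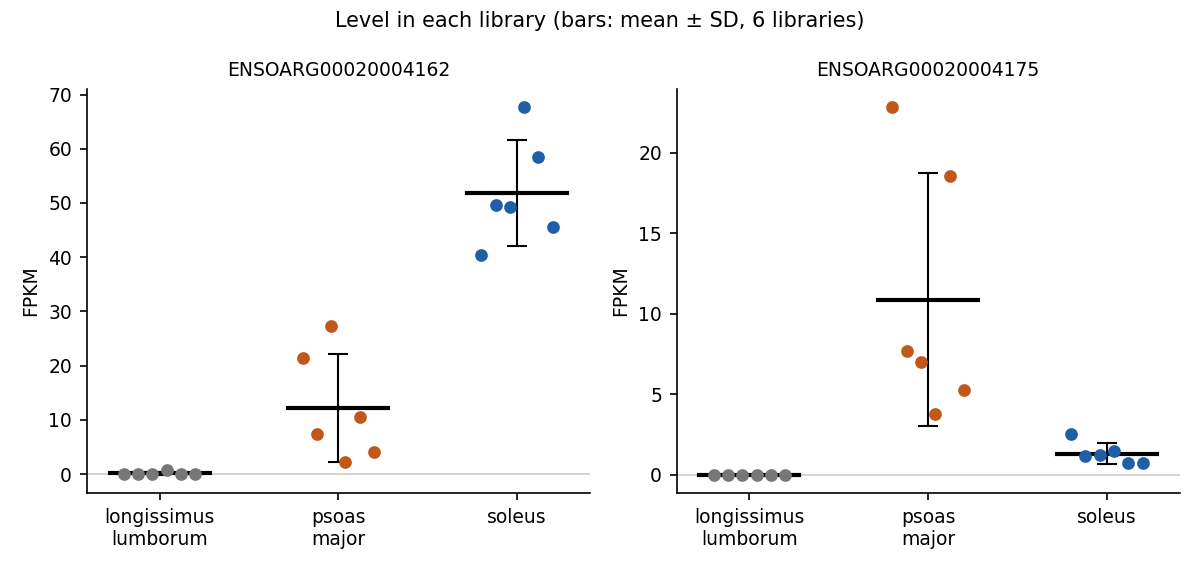
FPKM of ENSOARG00020004162 (left) and ENSOARG00020004175 (right) in the 6 libraries of each muscle; points are libraries, horizontal bars the mean and vertical bars the SD. ENSOARG00020004162 is highest in soleus, at 40.4 to 67.6 FPKM, while ENSOARG00020004175 is highest in psoas major, at 3.78 to 22.8 FPKM, and longissimus lumborum stays at 0.732 FPKM or less for both.

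The genes differed in which muscle came first: soleus for ENSOARG00020004162, psoas major for ENSOARG00020004175. The contrast of SOL and PM was not the one that chose them, though its libraries also served in the contrasts with LL that did, and each gene had been singled out from the muscle where it is highest. Its tests are therefore no independent evidence of direction. ENSOARG00020004162 was higher in SOL by 2.54 on the log2(FPKM + 0.1) scale (SE 0.55, 95% interval 1.39 to 3.68, limma adjusted p = 0.0025 over 15434 genes). The mean was 4.26 times as high in SOL as in PM. Over all genes tested, 11.0% were called higher in SOL, and 6.75% were higher in SOL with no overlap. ENSOARG00020004175 was lower in SOL, with a log2 difference of -2.77 (SE 0.44, 95% interval -3.70 to -1.85, limma adjusted p = 0.00013). Its mean was 8.24 times as high in PM as in SOL. Lower calls made up 5.82% of all genes tested, and 3.78% were lower in SOL with no overlap.

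Among calls in the same direction, 149 of 1698 had a larger log2 difference than ENSOARG00020004162, and 86 of 899 a larger one than ENSOARG00020004175. The median size was 1.03 among the higher calls and 0.93 among the lower ones. After median-ratio scaling, which took the median log2 difference of all genes from 0.15 to 0.03, the calls split into 1260 higher and 1262 lower, and the members stood at 2.41 and -2.89. LL libraries, all at 0 for ENSOARG00020004175, enter the shared estimate of spread, so the 12 PM and SOL libraries were also fitted alone. The adjusted p in that limma fit was 0.0016 for ENSOARG00020004162 and 0.00047 for ENSOARG00020004175. An exact two-sided permutation test of the 6 SOL and 6 PM values gave p = 0.0022 for each gene, and an exact sign-flip permutation test on the 6 same-numbered pairs gave p = 0.031 for each. Each is the smallest its design allows, which groups without overlap always give.

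Since no muscles overlapped, each gene had the same order of muscles at each of the 6 library numbers. The size of the step between PM and SOL varied widely between numbers. SOL exceeded PM for ENSOARG00020004162 by 1.81-fold in number 3 and 1.89-fold in number 1, but by 30.3-fold in number 4. PM exceeded SOL for ENSOARG00020004175 by 2.52-fold in number 4 and by 26.4-fold in number 5. The largest step of the former gene and the smallest of the latter thus belong to the same number, that of the PM library lowest in both genes.

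**Figure D2:**
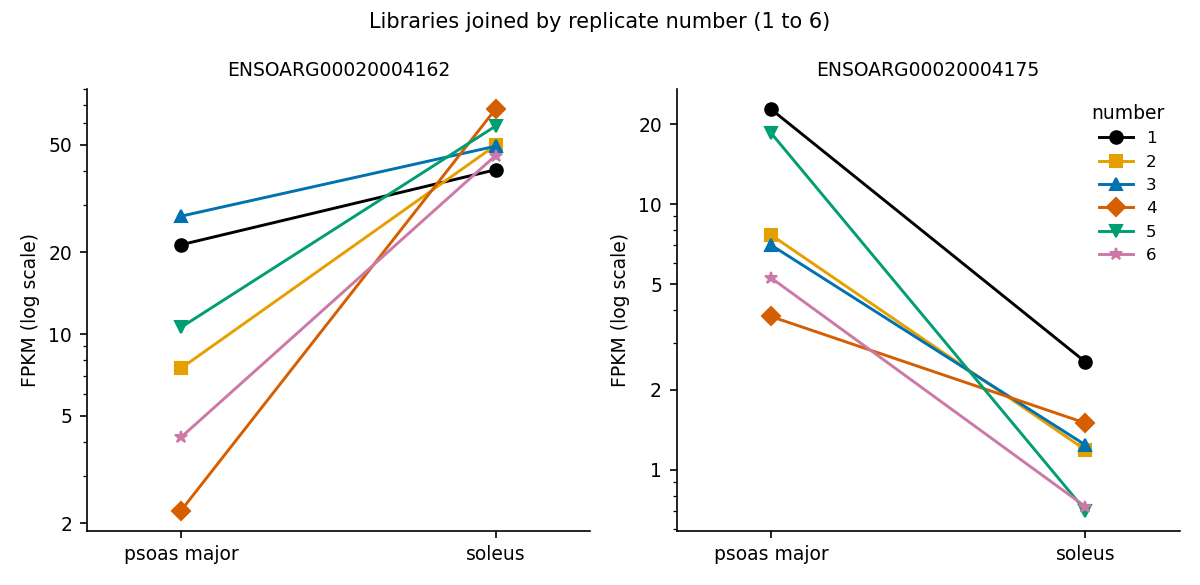
FPKM on a log axis in psoas major and soleus, with libraries of the same number joined by a line, for ENSOARG00020004162 (left) and ENSOARG00020004175 (right). All 6 lines rise to soleus on the left, by 1.81-fold to 30.3-fold, and all 6 fall on the right; the psoas major points on the left are spread far wider than the soleus points.

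The ratio of the genes to each other separated the muscles as well. In PM, ENSOARG00020004162 stood at 0.936, 0.975, 3.87, 0.590, 0.570 and 0.787 times the FPKM of ENSOARG00020004175, in order of library number. The genes were thus of similar level per length in PM, apart from PM 3. In SOL the ratio was 15.8, 41.8, 39.8, 45.1, 83.3 and 62.6. The lowest SOL ratio exceeded the highest PM ratio, with medians of 43.4 and 0.861. This restates the opposite orders above and is a description.

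Both genes varied widely among PM libraries, and more than most genes of like level. ENSOARG00020004162 spanned 12.2-fold between the lowest and highest PM library and 1.67-fold between SOL libraries. Its SD on the log2(FPKM + 0.1) scale was 1.36 in PM, above that of 99.3% of the 5224 genes whose PM mean lay within a factor of 2 of its own, where the median was 0.30. In SOL its SD was 0.26, above 54.6% of 2428 such genes, with a median of 0.25. In SOL its spread was thus close to the median of genes of like level.

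ENSOARG00020004175 spanned 6.04-fold in PM, with an SD of 1.01, above that of 98.4% of genes of like level, whose median was 0.31. Its SD in SOL was 0.64, above 30.9% of 2328 genes of like level, with a median of 0.85. In the highest and lowest PM libraries, the exact 95% Poisson interval of ENSOARG00020004162 was 24.3 to 30.3 FPKM (PM 3) and 1.50 to 3.18 (PM 4). That of ENSOARG00020004175 was 20.3 to 25.5 FPKM (PM 1) and 2.81 to 4.98 (PM 4). PM library totals, in order of number, were 12794181, 13747139, 11124192, 12454826, 12421853 and 11577123 reads, and the part of depth in the spread was not tested. The number of genes with a read was 14647 to 14942 over these libraries.

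**Figure D3:**
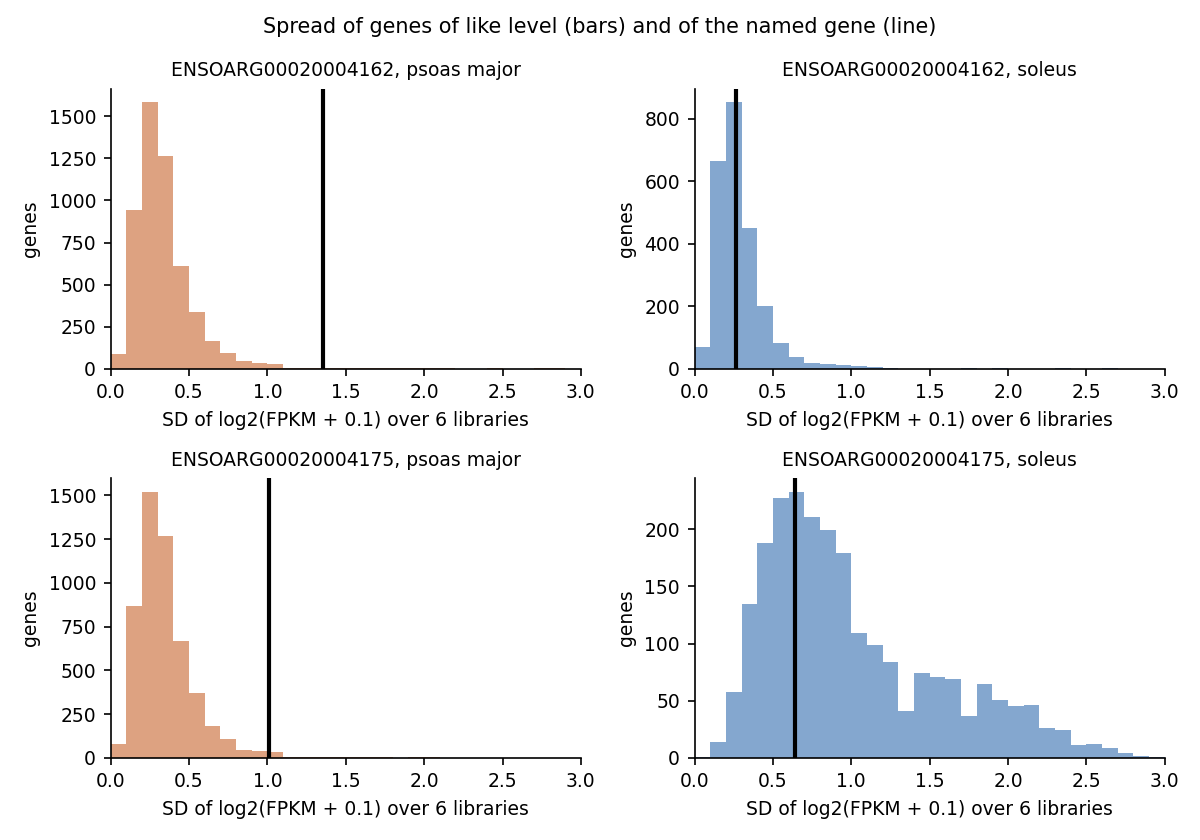
Histograms of the SD of log2(FPKM + 0.1) over the 6 libraries of a muscle, for genes whose mean lies within a factor of 2 of that of ENSOARG00020004162 (top) or ENSOARG00020004175 (bottom), in psoas major (left) and soleus (right); the black line is the named gene. In psoas major the lines stand at 1.36 and 1.01, in the far right tail, and in soleus at 0.26 and 0.64, within the bulk.

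Whether the genes vary together was asked within each muscle on the log2(FPKM + 0.1) scale. In PM they leaned the same way without passing the test: Pearson's r was 0.674 (exact permutation p = 0.15, 0.44 after Benjamini-Hochberg adjustment over 4 relations, n = 6). Spearman's rho was 0.657 (exact permutation p = 0.17, 0.70 adjusted). PM 4 was lowest and PM 6 second lowest in both genes, and PM 1 was highest in ENSOARG00020004175 and second highest in ENSOARG00020004162. PM 3 broke the order, being highest in ENSOARG00020004162 at 27.2 FPKM and below 3 other libraries in ENSOARG00020004175 at 7.03. Without PM 3, r was 0.958 (exact permutation p = 0.017, 0.067 adjusted, n = 5), a library left out after its values were known. Without PM 4 it was 0.464. Leaving out the 2 libraries farthest from the median of ENSOARG00020004162, PM 3 and PM 4, gave r = 0.938 (exact permutation p = 0.083, 0.33 adjusted, n = 4).

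In SOL the relation had no clear direction. Pearson's r was -0.303 (exact permutation p = 0.55, 0.65 adjusted, n = 6) and Spearman's rho was -0.257 (exact permutation p = 0.66, 0.88 adjusted). SOL 1 was lowest in ENSOARG00020004162 and highest in ENSOARG00020004175, and without it r was 0.395. Without the 2 libraries farthest from the median, SOL 1 and SOL 4, r was -0.274. ENSOARG00020004175 rests on 10 to 34 reads per SOL library, where counting error is wide. The 95% Poisson interval of SOL 1, at 1.76 to 3.56 FPKM, overlapped that of SOL 4, at 0.903 to 2.34, and lay above those of SOL 5, at 0.351 to 1.26, and SOL 6, at 0.349 to 1.34. No relation was detected in SOL. After median-ratio scaling r was -0.070. Whether r differs between PM and SOL was not tested.

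**Figure D4:**
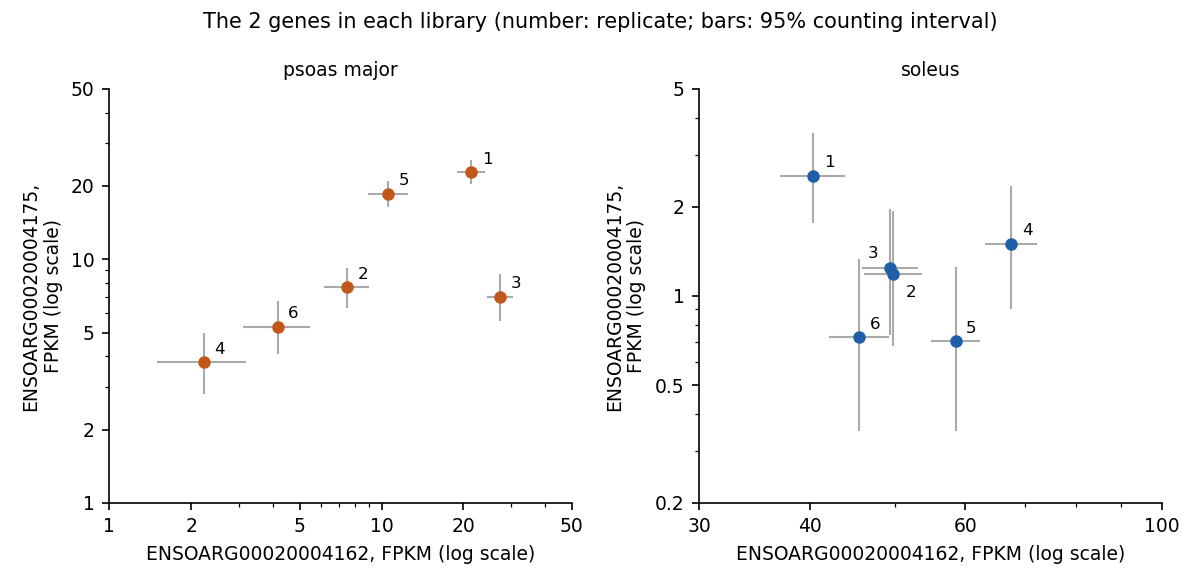
ENSOARG00020004175 against ENSOARG00020004162 in each psoas major library (left) and soleus library (right), FPKM on log axes, numbered by replicate, with exact 95% Poisson intervals. The psoas major libraries lean upward, with library 3 apart at 27.2 FPKM of ENSOARG00020004162 and 7.03 of ENSOARG00020004175. That relation did not pass the test (r = 0.674 over all 6, exact permutation p = 0.15, 0.44 adjusted). The soleus libraries show no clear direction (r = -0.303).

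Some genes had a higher r with a member in PM than the members had with each other. With 6 libraries an r of 0.674 is not rare by chance (two-sided exact permutation p = 0.15), so the shares below are a description. Of 13559 genes that averaged 0.5 FPKM or more and had some spread in PM, ENSOARG00020004175 ranked 889th by r with ENSOARG00020004162, and 6.55% had a higher r. In the reverse direction, ENSOARG00020004162 ranked 1173rd, with 8.64% above it. In SOL 60.3% and 73.0% of genes had a higher r.

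Levels by number were also compared between the muscles. For ENSOARG00020004162, PM and SOL levels of the same number had r = -0.590 (exact permutation p = 0.22, 0.44 adjusted, n = 6) and rho = -0.486 (exact permutation p = 0.36, 0.71 adjusted). Number 4 was lowest in PM and highest in SOL, and without it r was -0.148. After median-ratio scaling, with all 6 numbers, r was -0.306. Leaving out numbers 3 and 4, farthest from the PM median, gave -0.262. For ENSOARG00020004175, r was 0.234 (exact permutation p = 0.65, 0.65 adjusted, n = 6) and rho was 0.029 (exact permutation p = 1.0, 1.0 adjusted). It turned to -0.610 without number 1 and to -0.171 without numbers 1 and 5. A number high in one muscle was therefore not shown to be high or low in the other for either gene.

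The genes most like each member over all 18 libraries were sought by Pearson's r of log2(FPKM + 0.1), which takes in the differences between muscles. For ENSOARG00020004162 the closest was ENSOARG00020016620 (r = 0.965), with means of 1.80 ± 0.614 FPKM for LL, 9.86 ± 4.49 for PM and 25.5 ± 6.42 for SOL (± SD over 6 libraries). Next came ENSOARG00020019567 (r = 0.943), at 1.14 ± 0.775, 5.04 ± 1.69 and 12.0 ± 3.77 FPKM. Both were also graded from LL to SOL, but neither was silent in LL. Within PM alone their r with ENSOARG00020004162 was 0.892 and 0.653, and within SOL it was -0.270 and 0.013. These libraries were part of the choice of both genes, so the values are a description, and whether r differs between the muscles was not tested.

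For ENSOARG00020004175 the closest was ENSOARG00020007686 (r = 0.868), with means of 10.5 ± 1.16 FPKM for LL, 25.2 ± 4.34 for PM and 24.3 ± 4.30 for SOL (± SD over 6 libraries). It too was lowest in LL, though far from silent, and its PM and SOL means differed by less than the SD of either. The second, ENSOARG00020021812 (r = 0.863, length 273 bp), had no LL read and stood at 2.21 ± 2.07 FPKM in PM and 1.46 ± 0.890 in SOL, from 45 and 31 reads in all. Their r with ENSOARG00020004175 was 0.642 and 0.837 within PM, and -0.044 and -0.038 within SOL. ENSOARG00020004162 ranked 37th among 13560 genes by likeness to ENSOARG00020004175 (r = 0.711), and ENSOARG00020004175 ranked 577th by likeness to ENSOARG00020004162.

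Silence in LL with a sizeable level elsewhere was rare in the table. Of 4625 genes with no LL read, 3029 had none in any library. Of the other 1596, 10 had a PM mean of at least 1 FPKM, 31 such a SOL mean and 7 both. ENSOARG00020004175 had the highest PM mean of all genes with no LL read, and the next stood at 3.52 FPKM. An LL mean under 0.2 FPKM with PM and SOL means of at least 1 FPKM was met by 13 genes, the 2 members included. Among these 13, SOL lay above PM with no overlap in 1 gene, ENSOARG00020004162, and PM above SOL with no overlap in 1 gene, ENSOARG00020004175. Over all genes tested the shares were 6.75% and 3.78%, so 1 gene of 13 in each direction does not set these 13 apart. ENSOARG00020004162 had the highest SOL mean of the 6161 genes with an LL mean under 0.2 FPKM, ahead of 15.4 FPKM for the next. These counts describe the pattern that chose the members.

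The identifiers lie close in number, but a number is not a position, and the table has no positions. The 7 listed identifiers between them and 10 on each side were read as a description. Of these 27, 9 had no read in any library, and 16 had a mean of at least 1 FPKM in some muscle. In all 16 the LL mean was at least 2.11 FPKM and at least 0.515 of the highest of the 3 muscle means. Their highest and lowest muscle means differed by 1.10-fold to 3.23-fold, with a median of 1.38-fold. None of these 16 was thus silent in LL.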

How the data were processed

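The deposited table gave FPKM as made by the authors, 1 column per library. Per the labels' protocols, HISAT2 (2.2.1) aligned the trimmed reads to the sheep genome and StringTie (2.2.0) assembled them, and the submitters' processing notes list DESeq. Build, annotation, counter and strand setting: not given in the sources used here. Reads shared with an overlapping or similar gene thus cannot be set apart. The unit was read from the values: each, times 1 whole length per gene and 1 whole total per library, came within 0.0011 of a whole number for all 17448 genes with reads, and summed reads met the totals within 0.0023%. Each length is the shortest that gives whole reads.

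The members and lists were chosen with earlier results of these data known. SOL and PM were compared with limma (3.58.1, R 4.3.3) on log2(FPKM + 0.1), with the variance trend and all 18 libraries (15 residual degrees of freedom). Benjamini-Hochberg adjustment ran over the 15434 genes averaging 0.1 FPKM or more, and a call is a two-sided adjusted p under 0.05. The fit and the recovery of reads were tested on simulated data. Relations used exact two-sided permutation of pairings (numpy 2.4.6), and 6 against 6 values were compared with scipy (1.17.1). Named beside the members were the 2 genes with the highest r with each, among genes averaging 0.5 FPKM or more. Deviations from the muscle means correlated over the tested genes between all same-numbered PM and SOL libraries (r from 0.125 to 0.229, against 0.017 or less for different numbers), so the numbers were taken to pair them. No label ties a number to a carcass. The limma p-values set the differences against the spread between these libraries only. The main fit left the pairing out, and the replicate block took it in. Alternatives were the replicate block, other pseudocounts, filters and scaling, voom on recovered reads, fits on fewer libraries and leaving out each library. Leaving out LL 3, SOL 3 and SOL 5 together, which stood apart in earlier results, and the sign-flip test were added after seeing the data.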

Additional observations from a re-analysis of the deposited data

Results flagged for a closer look

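Within a muscle, the top and bottom library of the 6 were set against the rest with Dixon's test, for the level of each member and for the ratio between them. Of 7 sets with any spread, 2 held a library that stood apart. For independent sets of normally distributed values, chance gives about 1 in 20, or 0.35 sets here. The LL set of ENSOARG00020004162 held 0, 1 or 10 reads per library, and the ratio sets reuse the levels. The 2 flags therefore cannot be weighed against 0.35.

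ENSOARG00020004162 stood at 0.732 FPKM in LL 4, from 10 reads with an exact 95% Poisson interval of 0.351 to 1.35 FPKM, while the other LL libraries had 0 or 1 read. This is 1.41% of its SOL mean and 6.02% of its PM mean. ENSOARG00020004175 had 0 reads in LL 4. Of 3 genes at 10 FPKM or more in SOL and under 1% of that in the other 5 LL libraries, ENSOARG00020004162 was one, and the other 2 had no read in LL 4. Taking each other LL library in the same way, 2 of 5 genes exceeded 1% in LL 1 and 2 of 5 in LL 2. The counts were 0 of 3 in LL 3, 1 of 4 in LL 5 and 2 of 3 in LL 6. The 1 of 3 in LL 4 is ENSOARG00020004162 itself, so such small sets cannot say whether LL 4 was unusual. The genes most like ENSOARG00020004162, ENSOARG00020016620 and ENSOARG00020019567, were also highest among LL libraries in LL 4, with 36 and 47 reads. Their next highest LL libraries were not far below, with 33 reads of the former in LL 2 and 34 of the latter in LL 3. Neither gene thus had the step from 0 or 1 read to 10 seen for ENSOARG00020004162. Both genes were also picked in part by their LL 4 levels. The cause of the LL 4 value was not tested.

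The ratio of ENSOARG00020004162 to ENSOARG00020004175 was 3.87 in PM 3 and 0.975 or less in the other PM libraries. PM 3 had the highest level of ENSOARG00020004162 in its muscle, 27.2 FPKM from 327 reads, and a middling level of ENSOARG00020004175, 7.03 FPKM from 83 reads. ENSOARG00020019567 had its highest PM level there, 7.20 FPKM, and ENSOARG00020016620 stood at 13.0 FPKM within a PM range of 4.22 to 15.3.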

How the results depend on the processing

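Since SOL and PM did not overlap, leaving libraries out could not turn the direction of their difference, and the permutation and sign-flip results were fixed. The replicate block, the filters and the fits without LL libraries keep the main estimate by design. The unchanged direction is therefore no further support. The difference between SOL and PM kept its direction for both genes under all 29 alternatives run for each, and its side of the threshold except in 1. With a pseudocount of 0.01 in place of 0.1, the log2 difference of ENSOARG00020004162 was 2.56 with a limma adjusted p of 0.054. That pseudocount widens the distances between LL libraries with 0, 1 and 10 reads, which share the estimate of spread. The SE was 0.88, against 0.55 with 0.1. The part of LL in this was not tested. With the replicate block, which takes the library numbers as pairs, the differences were 2.54 (limma adjusted p = 0.0052) and -2.77 (limma adjusted p = 0.00025). Both members kept their call. Over all genes the block gave 2012 higher and 1051 lower calls, against 1698 and 899 in the main fit. With each library left out in turn, ENSOARG00020004162 ranged from 2.15 to 2.86 and ENSOARG00020004175 from -3.01 to -2.50. Without LL 3, SOL 3 and SOL 5 together they stood at 2.50 and -2.61, and with voom on recovered reads at 2.56 and -2.87.

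No relation passed the adjusted threshold under any of its 12 alternatives. In the alternative that left 4 libraries, 1 relation alone could not have passed, because 4 values have too few pairings. With each library or number left out, r between the genes ranged from 0.464 to 0.958 in PM and from -0.735 to 0.395 in SOL, and r between the muscles from -0.803 to -0.148 for ENSOARG00020004162 and from -0.610 to 0.706 for ENSOARG00020004175. The last was -0.171 without the 2 numbers farthest from the median. Off the log scale, r was 0.433 between the genes in PM and 0.476 between the muscles for ENSOARG00020004175. After median-ratio scaling, r was -0.070 between the genes in SOL and -0.306 between the muscles for ENSOARG00020004162. The 108 reads of ENSOARG00020004175 over all SOL libraries limit what its spread there can show.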
